A study of Mus musculus with 5 samples.

Results

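Plasmacytoid dendritic cell (pDC) genes were followed through single-cell RNA sequencing of mouse bone marrow (BM) after cyclophosphamide (CTX), an alkylating chemotherapy drug. The 10 genes, out of 31053 in the count matrices, were Siglech, Klk1, Klk1b27, Ccr9, Tcf4, Spib, Bst2, Cd7, Runx2 and Pacsin1. They were chosen by symbol and not by their values, and all 10 had at least 1 unique molecular identifier (UMI, a tag that marks 1 captured RNA molecule) in every library except the naive sorted library, where 9 had. Whole BM was taken from untreated BALB/c mice (naive) and from mice 2 days (D2 CTX) or 7 days (D7 CTX) after 150 mg/kg CTX given into the peritoneal cavity. Each of these 3 libraries pooled cells of 3 mice after dead cell removal. CD11b+Ly6Chi cells sorted as classical monocytes from naive and from CTX-treated mice made up the other 2 libraries, and the labels do not give the day of the CTX sort. The genotype entry of the labels reads CD45+ for whole marrow and CD11b+Ly6Chi for sorted cells, neither of which is an engineered allele, and the mice were 4 to 8 weeks old.

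Plasmacytoid dendritic cells are the bone marrow-born dendritic cells that sense nucleic acids through the endosomal receptors TLR7 and TLR9 and answer with large amounts of type I interferon. Their identity rests on the E protein transcription factor encoded by Tcf4, which acts with Spib and Runx2. Siglech, Bst2, Ccr9 and Cd7 encode surface proteins, among them the sialic acid-binding receptor and the interferon-inducible tetherin by which these cells are commonly recognized in mice. Pacsin1 encodes a membrane-bending adaptor that has been linked to their interferon response. Klk1 and Klk1b27 encode tissue kallikreins, secreted serine proteases best known from salivary gland and kidney.

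With 1 pooled library per condition, no difference between conditions had a replicate check, and no p-value was computed. Every interval given here is a 95% interval for counting error only, exact Poisson for a level, exact conditional for a ratio and Clopper-Pearson for a share of cells. Levels are UMIs of a gene per 1000000 UMIs (CPM) summed over the cells named, and ratios are on the log2 scale. Libraries held 1891 to 8290 cells after filtering, with median UMIs per cell from 3033.5 to 10299, and any pair of libraries shared at most 15 cell barcodes. Whole marrow was divided into classes by clustering without the 10 genes among the variable genes, and classes were named from fixed markers that did not include them. The cluster called pDC-like held all 10 of its fixed markers, and the genes that led it apart from the 10 were Cox6a2, Cadm1 and P2ry14. Holding these markers did not set it apart alone, since conventional dendritic cell-like (cDC-like) cells also had UMIs of all 10. Their levels were lower than in pDC-like cells for all but Ly6d, at 776 against 664 CPM. Ly6d was highest in B cell-like cells, at 1021 CPM. It contained 131 naive, 192 D2 CTX and 111 D7 CTX cells.

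Klk1 and Klk1b27 lie in the kallikrein cluster on chromosome 7, where many genes are close copies of each other. In GRCm38, Klk1b27 spans chr7:44052290-44056712 and Klk1 spans chr7:44225360-44229618, both on the plus strand, with 10 further kallikrein genes or pseudogenes between them. Their longest coding transcripts matched at 85.1% of 880 aligned bases, and the last 300 bases, nearest the end that 3′ libraries read, at 81.8%. The longest identical run in that last stretch was 42 bases, and the split of reads between the pair is uncertain. Ccr9 (chr9:123678439-123784330) shares exons with Gm17200 on its own strand, and with Slc6a20a and AC165425.1 on the other. Cd7 (chr11:121036747-121039418) shares exons with the antisense gene Gm11775 and Runx2 with the antisense gene Runx2os1. Of these exon overlaps, only that of Ccr9 with Gm17200 lies on the same strand, where reads may not be assigned with certainty. How reads from the overlaps were assigned was not tested.

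The promoter windows of 4 of the 5 genes largely restricted to pDC-like cells are shown, with that of the fifth, Pacsin1, searched but not printed since it held no match, because Tcf4 protein belongs to the family that binds E-boxes. The motif searched was CAGGTG on either strand, which is CACCTG on the other. Windows for 8 of the 10 genes were matched in the RefSeq promoter table used here, and Tcf4 and Cd7 were not searched. Of these 8, the 250 bases before the start site held the motif in Siglech, Klk1, Ccr9 and Bst2, beside 17.1% of 27025 genes with a window of this length. Capitals mark the matches in the GRCm38.p6 sequences, written on the strand of the gene.
Siglech, chr7:55767934-55768183, plus strand: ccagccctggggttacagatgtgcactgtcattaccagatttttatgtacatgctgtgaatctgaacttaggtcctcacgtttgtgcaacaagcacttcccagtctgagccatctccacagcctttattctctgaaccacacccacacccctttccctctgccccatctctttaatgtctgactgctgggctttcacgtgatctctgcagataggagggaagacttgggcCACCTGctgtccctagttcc
Klk1, chr7:44225110-44225359, plus strand: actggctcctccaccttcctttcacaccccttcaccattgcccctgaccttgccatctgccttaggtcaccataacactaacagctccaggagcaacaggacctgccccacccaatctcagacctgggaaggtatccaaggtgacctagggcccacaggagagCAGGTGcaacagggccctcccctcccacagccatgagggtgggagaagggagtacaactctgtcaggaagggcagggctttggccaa
Klk1b27, chr7:44052040-44052289, plus strand: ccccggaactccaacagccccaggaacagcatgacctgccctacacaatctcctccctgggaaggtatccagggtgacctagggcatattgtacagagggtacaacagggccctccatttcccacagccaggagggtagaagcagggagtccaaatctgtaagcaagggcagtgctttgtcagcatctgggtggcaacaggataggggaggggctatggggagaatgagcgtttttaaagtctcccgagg
Ccr9, chr9:123766961-123767210, plus strand: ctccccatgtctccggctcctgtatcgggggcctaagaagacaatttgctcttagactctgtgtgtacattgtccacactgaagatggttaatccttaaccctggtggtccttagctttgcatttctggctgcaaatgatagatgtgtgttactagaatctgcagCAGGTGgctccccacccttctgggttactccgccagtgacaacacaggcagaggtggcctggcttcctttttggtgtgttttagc
The match lay 20 bases before the start site in Siglech, 87 bases before it in Klk1 and 85 bases before it in Ccr9. The Klk1 and Klk1b27 windows could be aligned over 183 bases, of which 79.8% were identical, and only the Klk1 window held the motif. These matches are a description of the letters and not evidence of binding.

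Bst2 is shown for another motif because it is both a pDC gene and an interferon-stimulated gene. The letters searched were GAAANNGAAA, and TTTCNNTTTC on the other strand, a short form of the interferon-stimulated response element. The Bst2 window held 2 overlapping matches, beginning 130 and 124 bases before the start site, whereas 3.04% of all windows held any. Of the 8 genes with an entry, Bst2 alone had a match. The CAGGTG of this window is left in lower case.
Bst2, chr8:71537473-71537722, minus strand: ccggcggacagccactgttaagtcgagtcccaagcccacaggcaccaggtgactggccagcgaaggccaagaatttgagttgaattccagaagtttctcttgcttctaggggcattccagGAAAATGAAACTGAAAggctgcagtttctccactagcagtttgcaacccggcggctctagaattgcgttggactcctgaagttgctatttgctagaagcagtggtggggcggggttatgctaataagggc

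The 10 genes are described as 5 that were largely restricted to pDC-like cells and 5 that were shared with other lineages, a division made with earlier results of these data known. Siglech, the sialic acid-binding receptor, had 87.6% of its UMIs in the pDC-like class of naive marrow, 89.2% in D2 CTX and 78.5% in D7 CTX, although that class made up only 1.84%, 3.13% and 1.34% of cells. Klk1 was the most confined, with 95.9%, 98.2% and 93.5% of its UMIs in pDC-like cells. The same shares were 93.2%, 95% and 87.7% for Klk1b27, 85.8%, 89.9% and 80.5% for Ccr9, and 80.0%, 80.6% and 80.8% for Pacsin1. Most of the remaining Siglech UMIs came from the cluster next to it, cDC-like cells, with 10.8%, 9.0% and 16.9%. In neutrophil-like cells, which are not expected to express these genes, the naive, D2 CTX and D7 CTX levels of Siglech were 0.14, 1.15 and 0.298 CPM, against 2589, 3593 and 2119 CPM in pDC-like cells.

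**Figure D1:**
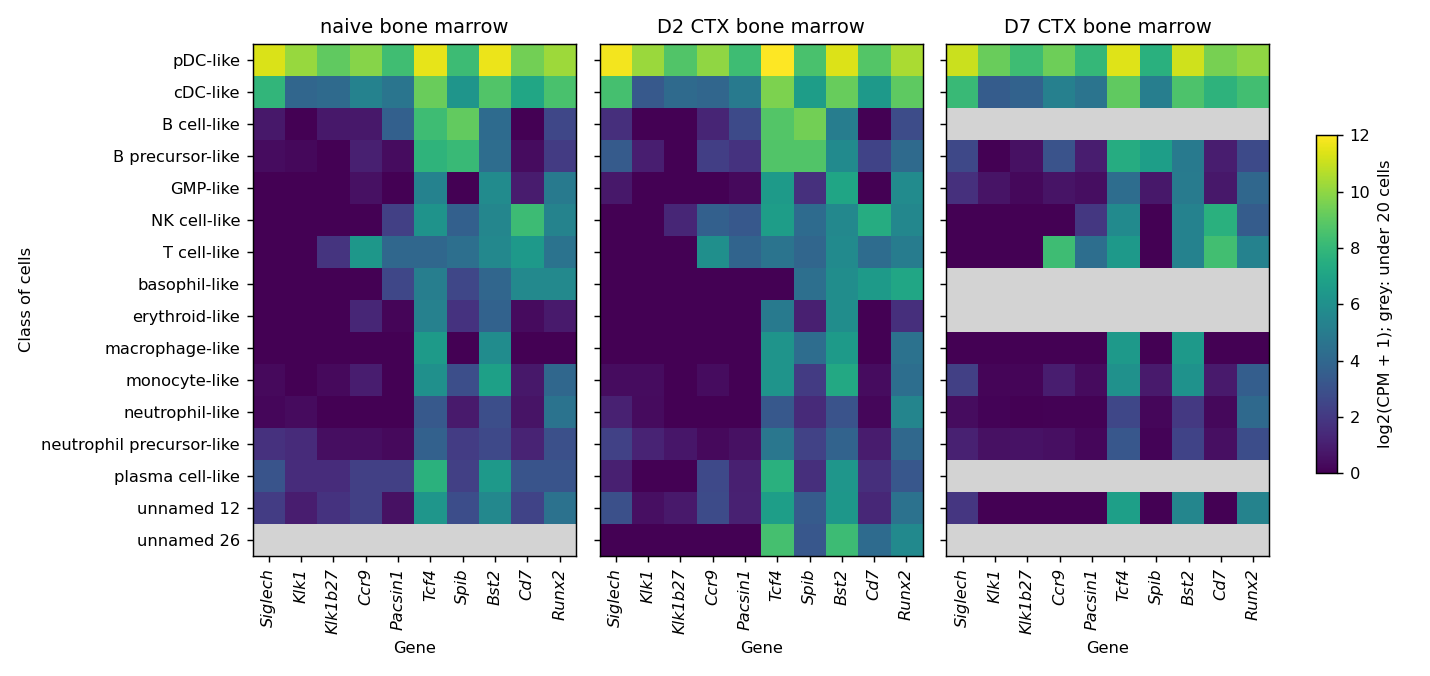
Levels of the 10 genes (columns) in each class of cells (rows) in the 3 whole marrow libraries, as log2(CPM + 1), with classes under 20 cells in grey. The 5 columns on the left light up mainly in the pDC-like row, where Siglech reached 2589 CPM in naive marrow, and the 5 on the right also in B, NK, T and cDC-like rows.

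Detection was also counted per cell. After each cell was thinned to 1000 UMIs, pDC-like cells carried a median of 6 of the 10 genes in each of the 3 libraries, with a range from 1 to 9, whereas neutrophil-like cells carried a median of 0. Cells under that depth were left out, 1 of them pDC-like and 120, 421 and 22 neutrophil-like in naive, D2 CTX and D7 CTX marrow, where the median neutrophil-like depths were 3092, 3002 and 5563 UMIs. At this depth a Siglech UMI was present in 84.7%, 95.3% and 83.6% of pDC-like cells, in the order naive, D2 CTX, D7 CTX, against 0 of 2051, 3 of 1951 and 1 of 3563 neutrophil-like cells. Without thinning, Siglech was found in 99.2%, 99.0% and 97.3% of pDC-like cells, at median depths of 5777, 5911 and 5985 UMIs. At least 2 of the 5 restricted genes were present in 79.4%, 83.9% and 68.2% of thinned pDC-like cells, in the same order, and in no thinned neutrophil-like cell. In cDC-like cells, the class most like them, the median was 1 of the 10 genes with a range from 0 to 6, and 1.12%, 5.08% and 6.03% of cells carried at least 2 of the 5. Outside the pDC-like and cDC-like classes, unthinned cells with at least 2 of the 5 numbered 4, 7 and 9 over these libraries, of which 1, 2 and 6 were called doublets.

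Transcription factor genes were the most widely shared. Tcf4 stood at 3043 CPM in naive pDC-like cells (2920 to 3170), 604 CPM in cDC-like, 307 CPM in B cell-like and 220 CPM in B precursor-like cells, and none of the first 3 intervals overlapped the next. Because B lineage cells were numerous, the pDC-like class held only 34.8% of Tcf4 UMIs in naive marrow and 31.5% came from B precursor-like cells. Spib, which encodes an Ets factor also used by B cells, was highest in naive B cell-like cells at 561 CPM (523 to 601), ahead of 299 CPM in pDC-like (262 to 341) and 276 CPM in B precursor-like cells (266 to 287), whose intervals overlapped. The pDC-like share of Spib UMIs was therefore 5.90% before CTX, 10.6% at D2 and 33.8% at D7. This order of classes did not hold for every cluster within them. In naive marrow, a B precursor-like cluster of 710 cells had Spib at 725 CPM (687 to 764). A B cell-like cluster of 229 cells had 157 CPM (126 to 194), below pDC-like cells. Runx2, best known as the osteoblast regulator, was led by pDC-like cells at 1213 CPM in naive marrow, followed by cDC-like cells at 379 CPM. Neutrophil-like cells carried Runx2 at 22.9, 42.9 and 16.0 CPM across naive, D2 CTX and D7 CTX, and it was detected in 2.44%, 4.82% and 1.66% of them after thinning.

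Surface protein genes outside the restricted group had their own second sites. Cd7, a T and NK cell co-receptor, reached 706 CPM in naive pDC-like cells (647 to 768), 296 CPM in NK cell-like (259 to 338), 135 CPM in cDC-like (113 to 159) and 89.9 CPM in T cell-like cells (63.0 to 124). The order of the last 2 is not settled, as their intervals overlapped. Bst2 stood at 3259 CPM in naive pDC-like cells (3132 to 3390), 432 CPM in cDC-like and 112 CPM in monocyte-like cells. Ccr9, the receptor for the gut and thymus chemokine CCL25, had T cell-like cells as its second site, with 79.9 CPM before CTX (54.7 to 113), 61.8 CPM at D2 (48.1 to 78.3) and 309 CPM at D7 (212 to 437). The D7 CTX value rested on 32 UMIs in 27 cells, and Cd7 stood in the same 27 cells at 329 CPM, beside 17.9 CPM in D2 CTX T cell-like cells.

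Over 42 sums of 1 class in 1 whole marrow library, each of at least 20 cells, the genes outside the 10 whose log2(CPM + 1) was most like that of Siglech were Havcr1 (Pearson r = 0.963), Cd209d (0.956), Cox6a2 (0.919), Clec9a (0.896), Mycl (0.891), Cd209a (0.877), Paqr5 (0.875), Sh3bgr (0.873), Upb1 (0.871) and Ddr1 (0.847). Among 11111 genes compared, Klk1b27 and Klk1 ranked 3 and 4 with r of 0.937 and 0.935, while Spib ranked 192 and Cd7 ranked 225. The closest pair within the 10 was Klk1 and Klk1b27 with r of 0.976. The sums share libraries and depth, and cDC-like and pDC-like sums dominate the upper end, so these coefficients describe likeness only. Cd209d, Cox6a2 and Upb1 were also markers used to name the class, and Clec9a and Cd209a to name the cDC-like class.

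Of the other genes of the kallikrein cluster, none reached the 50 UMIs needed over any pair of libraries in pDC-like cells. Klk8, a protease known from skin and brain, had 225, 495 and 151 UMIs in naive, D2 CTX and D7 CTX marrow, but only 5 of them in pDC-like cells in each library. Klk4 had 24, 10 and 3 UMIs, and every other kallikrein gene with any UMI (Klk1b1, Klk1b4, Klk1b5, Klk1b9, Klk1b11, Klk1b21, Klk6, Klk7, Klk10 and Klk15) had at most 5 in any library. Klk1 and Klk1b27 together thus carried nearly all kallikrein UMIs of pDC-like cells, 846 and 399 before CTX, 1325 and 492 at D2, and 457 and 236 at D7.

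In whole marrow, pDC gene levels stood above naive in D2 CTX and below naive in D7 CTX. The 5 restricted genes summed to 101 CPM before CTX, 242 CPM at D2 and 53.5 CPM at D7, a log2 ratio of 1.27 (1.21 to 1.32) at D2 and -0.91 (-0.97 to -0.85) at D7. Siglech went from 48.4 to 136 and 29.9 CPM, Klk1 from 19.1 to 39.7 and 7.20 CPM, and Ccr9 from 17.1 to 38.2 and 8.92 CPM. Klk1b27 stood at 9.29, 15.3 and 3.96 CPM and Pacsin1 at 6.62, 12.9 and 3.53 CPM. Of the shared genes, Tcf4 was at 143, 285 and 61.7 CPM, Spib at 83.1, 117 and 6.49 CPM and Runx2 at 39.1, 93.0 and 28.4 CPM. Bst2 was at 89.5, 165 and 46.9 CPM. Cd7 moved least at D2, with 21.3, 23.2 and 15.3 CPM and a D2 ratio of 0.13 whose interval (-0.01 to 0.26) included 0. All 10 genes were above naive in D2 CTX, and Siglech, Klk1, Ccr9 and Runx2 were at least 2-fold higher, in a comparison where 6.03% of 10646 genes were that much higher and 3.09% that much lower. All 10 were below naive in D7 CTX, with Klk1, Klk1b27, Tcf4 and Spib at least 2-fold lower, where 1.06% of 10475 genes were that much higher and 24.2% that much lower. These counts used log2 ratios with 1 CPM added to each level, on which scale the median of all genes tested was 0.19 at D2 and -0.61 at D7. Relative to that median, Siglech and Runx2 remained at least 2-fold higher at D2, and at D7 only Spib remained 2-fold lower, with 2 of the 10 above the median and 8 below.

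Composition moved with these whole marrow levels. Of all cells, the pDC-like class took 1.84% before CTX (1.54 to 2.18), 3.13% at D2 (2.71 to 3.60) and 1.34% at D7 (1.10 to 1.61), and the D2 CTX interval overlapped neither of the others. Spib had the lowest whole marrow ratio at D7, -3.68 (-3.82 to -3.54), from 83.1 to 6.49 CPM. Over the same interval B cell-like cells, its highest class, went from 570 of 7104 to 8 of 8290 cells, and B precursor-like cells from 1482 to 207, with Spib inside the latter at 276 and 105 CPM. A share of cells is a part of a whole. Neutrophil-like cells went from 30.6% before CTX to 43.2% at D7 and neutrophil precursor-like cells from 11.7% to 32.4%, so a lower pDC-like share does not show that fewer such cells were present in the marrow.

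**Figure D2:**
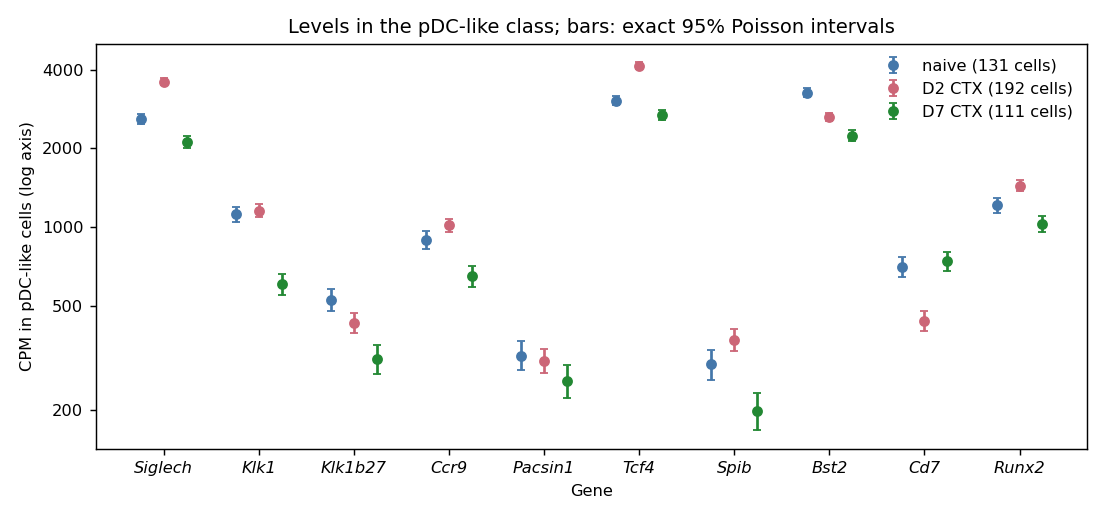
Levels of the 10 genes in pDC-like cells (CPM, log axis) in naive, D2 CTX and D7 CTX marrow, with exact 95% Poisson intervals. D2 CTX is the highest of the 3 for Siglech at 3593 CPM and Tcf4 at 4143 CPM, and the lowest for Cd7 at 440 CPM.

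Inside the pDC-like class the ratios of most of the 10 genes were closer to 0 than in whole marrow, Cd7 at D2 being an exception. Relative to the median of all genes tested, however, the median of the 10 at D7 was -0.28 in whole marrow and -0.25 in the class. At D2, none of the 10 genes was 2-fold apart from naive, in a class where 3.14% of 5194 genes were at least 2-fold higher and 1.08% at least 2-fold lower. Siglech was at 2589 CPM before and 3593 CPM at D2, a log2 ratio of 0.47 (0.39 to 0.55), and Tcf4 at 3043 and 4143 CPM, a ratio of 0.44 (0.37 to 0.52). Spib, Runx2 and Ccr9 were also higher, with ratios of 0.31 (0.07 to 0.54), 0.25 (0.13 to 0.37) and 0.19 (0.05 to 0.33). Cd7 was lower at 440 against 706 CPM, a ratio of -0.68 (-0.86 to -0.50), and so were Bst2 at 2637 against 3259 CPM, -0.31 (-0.38 to -0.23), and Klk1b27 at 430 against 528 CPM, -0.30 (-0.49 to -0.10). Klk1, at 1158 against 1120 CPM, and Pacsin1, at 309 against 323 CPM, had intervals that included 0. The median of the 10 was 0.12, beside 0.04 over all genes tested. The lower Cd7 was not particular to this class, since NK cell-like cells went from 296 to 172 CPM, a ratio of -0.78 (-1.12 to -0.46), and cDC-like cells from 135 to 90.4 CPM.

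At D7, again none of the 10 was 2-fold apart, where 2.6% of 4305 genes were at least 2-fold higher and 1.56% at least 2-fold lower. Of the 10 levels, 9 were below naive. The kallikreins were the lowest, Klk1 at 607 against 1120 CPM, a ratio of -0.88 (-1.05 to -0.72), and Klk1b27 at 313 against 528 CPM, -0.75 (-0.99 to -0.52). Spib followed at -0.60 (-0.90 to -0.29), Bst2 at -0.54 (-0.63 to -0.45), Ccr9 at -0.46 (-0.63 to -0.29) Pacsin1 at -0.33 (-0.61 to -0.05), Siglech at -0.29 (-0.39 to -0.19), Runx2 at -0.23 (-0.37 to -0.09) and Tcf4 at -0.18 (-0.27 to -0.09). Cd7 was the exception at 740 against 706 CPM, 0.07 (-0.11 to 0.24). The median of the 10 was -0.39, beside -0.15 over all genes tested, and the 21 measured genes of a list of other pDC-associated genes were all below 0 with a median of -0.39, where 2818 of all 4305 genes tested were below 0. Without cells called doublets the median of that list was -0.20, and some of its genes were above 0, such as Ly6d at 0.45 (0.28 to 0.62).

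Cells called doublets moved with the D7 values. Doublet calls in the pDC-like class numbered 11 of 131 before CTX, 30 of 192 at D2 and 19 of 111 at D7, with median depths of 6782, 8708 and 12399 UMIs against 5651, 5772.5 and 5665.5 in the remaining cells. The 9 neutrophil markers, all with UMIs in each library, summed in pDC-like cells to 5269 CPM before CTX, 27686 CPM at D2 and 84633 CPM at D7. They summed to 1355, 3870 and 18728 CPM once the called doublets were left out. In those remaining cells the D7 ratio was -0.01 for Siglech (-0.11 to 0.09), -0.13 for Ccr9 (-0.31 to 0.04), -0.02 for Runx2 (-0.16 to 0.13), -0.004 for Pacsin1 (-0.30 to 0.29) and 0.11 for Tcf4 (0.02 to 0.20), and the interval of Spib also included 0. Klk1 remained lower at -0.69 (-0.87 to -0.51), Klk1b27 at -0.52 (-0.77 to -0.27) and Bst2 at -0.33 (-0.42 to -0.23), and Cd7 was higher at 0.30 (0.12 to 0.49). At D2 the ratio of Pacsin1 turned from -0.07 to 0.10, with 0 inside either interval, and the other 9 kept their sign. With doublets left out the median of the 10 at D7 was -0.08, beside -0.02 over all genes tested.

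**Figure D3:**
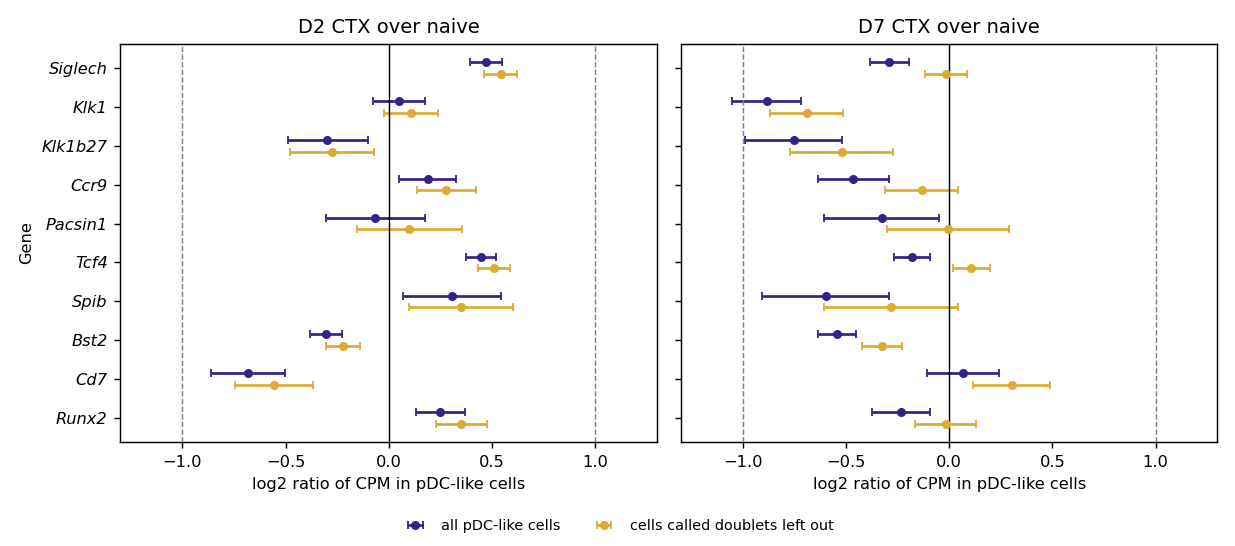
log2 ratios of CPM in pDC-like cells for D2 CTX over naive (left) and D7 CTX over naive (right), with exact 95% intervals, for all pDC-like cells and without cells called doublets. Dashed lines mark 2-fold. Leaving out doublets moved Siglech at D7 from -0.29 to -0.01, while Klk1 went from -0.88 to -0.69.

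Gene groups around the 10 were examined in the same class. At D2, 8 of 19 interferon-stimulated genes had enough UMIs. All 8 were above naive with a median ratio of 0.84, where 2777 of all 5194 genes tested were above naive. Isg15, Ifi44 and Usp18 were at least 2-fold higher, beside 3.14% of all genes tested. The UMI minimum was on the sum of both libraries, so genes low in naive cells could enter by being higher at D2. Usp18, at 15.9 CPM in naive cells, was the lowest of the 3 called. The count of 8 above naive may therefore overstate the list as a whole. The list was not higher in this class alone: its summed level went from 1381 to 2348 CPM in pDC-like, from 732 to 1538 CPM in cDC-like and from 532 to 1156 CPM in neutrophil-like cells. Ifi44 went from 110 to 302 CPM, a ratio of 1.46 (1.11 to 1.82), Usp18 from 15.9 to 40.2 CPM, 1.34 (0.40 to 2.39), and the ubiquitin-like modifier gene Isg15 from 34.4 to 69.9 CPM, 1.02 (0.37 to 1.72). Bst2, itself an interferon-stimulated gene but kept out of this list, was lower, at -0.31. At D7, 4 interferon-stimulated genes had enough UMIs and all stood below naive, as did 2818 of all 4305 genes tested. Ifi27l2a was 2-fold lower at 400 against 805 CPM, beside 1.56% of all genes tested. Without called doublets, 2 of 8 were at least 2-fold higher at D2 (Ifi44 and Usp18), beside 2.41% of all genes tested. Isg15 then stood just under the threshold at 0.97 (0.27 to 1.71). None of 4 was 2-fold lower at D7, beside 0.588% of all genes tested.

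Of 23 genes on the TLR7 and TLR9 pathway list, 17 were measured at each time, and none of these was 2-fold apart. Tlr9 itself was not among those measured at D2, with 3 UMIs in both naive and D2 CTX cells. Of all genes tested in the class, 3.14% were at least 2-fold higher and 1.08% lower at D2, and 2.6% and 1.56% at D7. Without called doublets these shares were 2.41% and 0.882% at D2, and 1.31% and 0.588% at D7. Irf7, the master regulator of type I interferon, went from 127 to 188 CPM at D2, a ratio of 0.56 (0.21 to 0.93), and to 71.7 CPM at D7, -0.83 (-1.33 to -0.33). Of the 20 dendritic cell transcription factor genes, 14 were measured at each time. Id3, an inhibitor of E proteins, was lower at D2 at 49.0 against 103 CPM, -1.08 (-1.60 to -0.56), and Spi1, which encodes PU.1, was higher at D7 at 179 against 64.9 CPM, 1.47 (0.98 to 1.97). Without called doublets Id3 was still 2-fold lower at D2 and no factor was 2-fold apart at D7. Among other pDC-associated genes, Ly6d, a surface gene of lymphoid progenitors, was lower at D2, from 926 to 321 CPM, -1.53 (-1.71 to -1.34), and Ptprf and Lrp8 were lower at D7, with 25 against 54 and 23 against 52 UMIs. Without called doublets Lrp8 was at -1.29 and Ptprf at -1.01, the latter under 2-fold only once 1 CPM was added.

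Conventional dendritic cell genes gave 10 measured members, of which none was 2-fold apart at D2 and 4 were 2-fold lower at D7, beside 1.56% of all genes tested. These were the MHC class II genes H2-Aa (485 against 979 CPM), H2-Ab1 (280 against 657), H2-Eb1 (134 against 348) and the invariant chain gene Cd74 (947 against 2231). Without called doublets 1 of 9 remained 2-fold lower, H2-Eb1 at 171 against 360 CPM, beside 0.588% of all genes tested. The median ratio of the list was then -0.76. Of the chemokine receptor genes, 6 were measured at D2 and 5 at D7. Ccr1 was higher at D2, with 62 against 8 UMIs, beside 3.14% of all genes tested. No other was 2-fold apart with doublets kept. Without doublets Cxcr4, 1 of 5 measured, was higher at D7 at 71.5 against 35.3 CPM, beside 1.31% of all genes tested. Ccr1 then no longer had enough UMIs. The UMI minimum was on the sum of both libraries, so a receptor with few naive UMIs could enter by being high after CTX. Calls on so few UMIs are therefore a description only.

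The genes of the sort gate were measured in the same class. Ly6c1, which with Ly6c2 encodes the Ly6C antigen, stood in pDC-like cells at 180 CPM before CTX, 723 CPM at D2 and 141 CPM at D7, a D2 ratio of 2.01 (1.74 to 2.28) that was 2.09 (1.81 to 2.38) without called doublets. Over the whole libraries Ly6c1 was likewise higher at D2, at 206 against 53.9 CPM. Ly6c2 stood at 1034, 919 and 646 CPM. Itgam, which encodes CD11b, had 4, 64 and 72 UMIs, and the neutrophil gene Ly6g had 10, 137 and 345, along with the neutrophil markers described above. Without called doublets Itgam no longer reached 50 UMIs in either comparison, and Ly6g only at D7, where it remained 2-fold higher with 55 against 5 UMIs. The part of neutrophil RNA in these ratios was not tested.

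Stray pDC gene-positive cells were found among the sorted monocytes. In the naive sorted library, 1 of 1891 cells carried at least 2 of the 5 restricted genes, or 0.0529% (0.00134 to 0.294), and in the CTX sorted library 9 of 2564 did, or 0.351% (0.161 to 0.665). After thinning to 2000 UMIs the counts were 0 of 1832, for which the interval reaches 0.201% and a floor of 3 counts is 0.164%, and 9 of 2493, or 0.361% (0.165 to 0.684). All 10 cells lay in the same cluster of sorted cells, which was led by H2-Aa, H2-Ab1, H2-Eb1 and Cd74 and held 63 naive and 44 CTX cells. None of the 10 was called a doublet.

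Those 9 cells carried most of the restricted UMIs of the CTX sorted library. They held 149 of 165 Siglech UMIs, with 5 to 36 per cell, all 55 Klk1 UMIs, 25 of 26 Klk1b27 UMIs, 87 of 94 Ccr9 UMIs and all 11 Pacsin1 UMIs. The cells were chosen for these genes, so their levels, 2473 CPM for Siglech (2092 to 2903) and 913 CPM for Klk1 (688 to 1188), are a description. Among the pDC markers outside the 10, 7 were counted in these cells. Cox6a2 had 2 to 11 UMIs in every one of the 9 cells, at 1095 CPM, and 3 UMIs in all 2555 other cells. Upb1 was also in all 9 cells, at 365 CPM beside 18.1 CPM in the others, and Atp1b1 in 8 of them, at 863 beside 1.16 CPM. Ly6d was in 4 cells and Cd209d in 3, while Cd300c and Rpgrip1 had no UMI in the 9 cells. Irf8 stood at 3867 CPM in the 9 cells and 487 CPM in the others.

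Several monocyte genes, though not all, ran the opposite way in the same cells. The lysozyme gene Lyz2 had 0 to 3 UMIs per cell, 149 CPM in all, against 27268 CPM in the other CTX sorted cells. Csf1r, F13a1 and Itgam had no UMI in the 9 cells, against 146, 1087 and 133 CPM in the others. With 60259 UMIs among the 9 cells, the interval for no UMI reaches 61.2 CPM. Ly6c2 was present in all 9 cells, at 896 CPM beside 781 CPM in the others. Ccr2 was in 8 of 9, at 548 beside 955 CPM, and Ms4a6c in 4, at 415 beside 1400 CPM. The single naive cell had 9 Siglech UMIs, 20 Bst2 UMIs and 39 Irf8 UMIs out of 10334, but no Cox6a2 or Lyz2 UMI. It also had 1 Itgam, 2 Csf1r, 3 Ly6c2, 7 Ccr2 and 9 Ms4a6c UMIs.

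**Figure D4:**
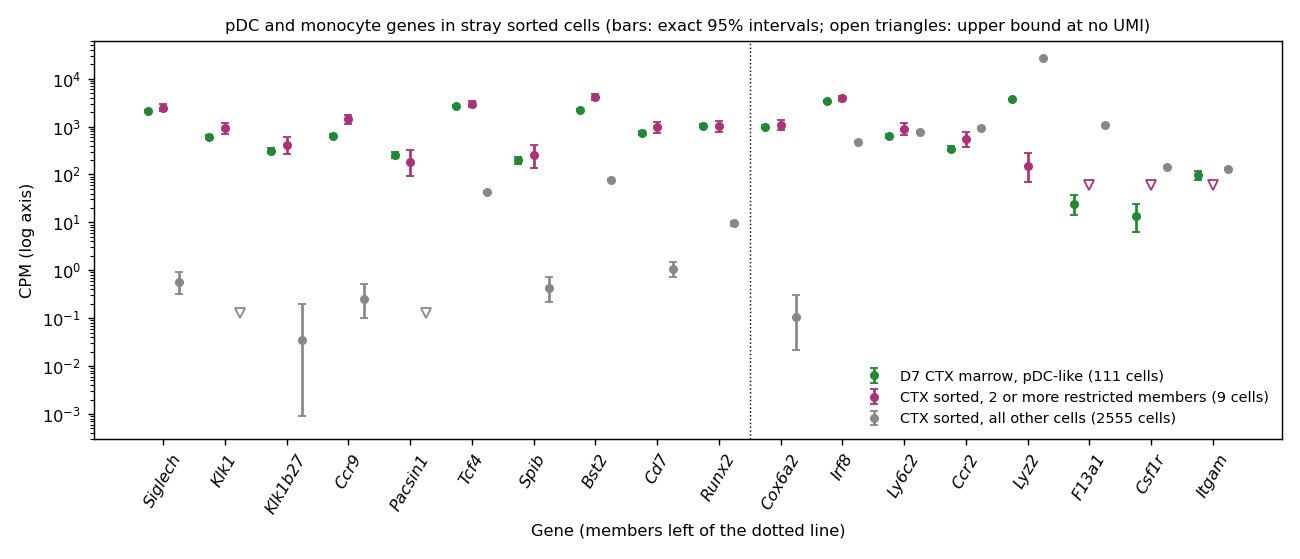
CPM (log axis) of the 10 genes and 8 further genes in D7 CTX marrow pDC-like cells, in the 9 CTX sorted cells with at least 2 restricted genes and in the 2555 other CTX sorted cells, with exact 95% Poisson intervals and open triangles for the upper bound where no UMI was counted. The 9 cells, chosen on the restricted genes, sit beside the pDC-like cells for Cox6a2 (1095 and 991 CPM), and far below other sorted cells for Lyz2 (149 and 27268 CPM).

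These few cells set the sorted comparison of the restricted genes. Over the whole libraries the 5 restricted genes had 17 UMIs in naive sorted and 351 in CTX sorted cells, a log2 ratio of 4.01 (3.31 to 4.80). Of these UMIs, 13 in the naive library came from 1 cell and 327 in the CTX library from 9 cells. The intervals of the ratios here count UMIs and do not cover the spread between cells. Siglech alone had 9 and 165 UMIs, a ratio of 3.83 (2.88 to 4.99), and Klk1b27 had 0 and 26, where 3 counts would be 0.135 CPM in the naive sorted library and the CTX sorted level was 0.908 CPM. Only Tcf4, Bst2 and Runx2 reached 200 UMIs over both sorted libraries and none was 2-fold apart, where 0.19% of 8961 genes were at least 2-fold higher and 0.837% at least 2-fold lower. With the 10 cells left out, Siglech had 0 and 16 UMIs, Ccr9 had 4 and 7, Klk1b27 had 0 and 1, and Klk1 and Pacsin1 had none in either library. Tcf4 went from a ratio of 0.16 (0.04 to 0.28) to -0.02 (-0.14 to 0.10), so its small difference rested on the 9 CTX cells. Cd7 kept 4 and 30 UMIs, a ratio of 2.55 (1.04 to 4.51), and those 30 UMIs came from 8 cells.

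Bst2 and Tcf4 were by contrast detected widely among sorted cells. Bst2 was detected in 55.4% of naive and 47.6% of CTX sorted cells, at 91.7 and 85.8 CPM, and Tcf4 in 35.1% and 32.0%, at 44.3 and 49.5 CPM. Bst2 was unevenly spread over clusters of sorted cells. A cluster led by Ifit3, Rsad2 and Ifit2 (21 naive and 16 CTX cells) had 534 CPM (437 to 646) and 610 CPM (478 to 767), and a cluster led by Ifi44, Rtp4 and Slfn5 had 191 CPM (173 to 209) and 157 CPM (142 to 173). Apart from these, and from the MHC class II cluster with the stray cells (159 and 967 CPM), the remaining clusters were at or below 89.3 CPM. Over the 12 clusters with at least 20 naive cells, Bst2 and the summed level of 19 interferon-stimulated genes had a Spearman rho of 0.97 in the naive sorted library, and of 0.59 over 12 clusters in the CTX sorted library. For Tcf4 the same coefficients were 0.91 and 0.80. The sets of clusters differed between the libraries. The cluster led by Ifit3 had 16 CTX cells and entered the naive coefficients only. Another cluster had 9 naive cells and entered the CTX coefficients only. In the CTX library, stray cells also held 249 of the 271 Bst2 UMIs of the MHC class II cluster. The coefficients of the libraries are therefore not like for like. The clusters were drawn on expression in the same cells, so these coefficients are descriptive.

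**Figure D5:**
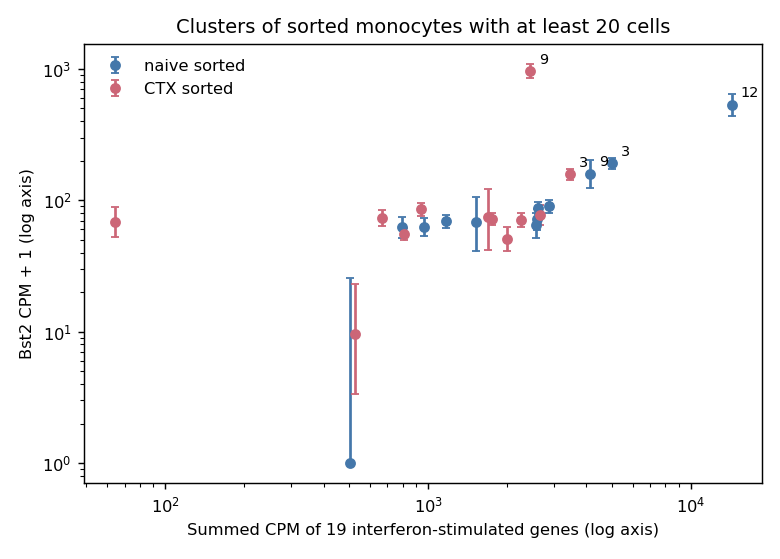
Bst2 level (CPM + 1, log axis, with exact 95% Poisson intervals) against the summed CPM of 19 interferon-stimulated genes (log axis) in each cluster of sorted monocytes with at least 20 cells of a library. Clusters 3 and 12 are led by interferon-stimulated genes, and cluster 9, which holds the stray cells, stands at 967 CPM in the CTX library, off the trend of the other clusters.

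In whole marrow, Bst2 was higher than naive at D2 in some classes, while it was lower in pDC-like cells. GMP-like cells went from 54.9 to 133 CPM, a ratio of 1.28 (0.997 to 1.57), B precursor-like cells from 18.3 to 52.2 CPM, 1.51 (1.19 to 1.83), and cDC-like cells from 432 to 595 CPM, 0.46 (0.29 to 0.64). B cell-like, erythroid-like, monocyte-like and neutrophil precursor-like cells were also higher, with intervals above 0. The intervals of NK cell-like, T cell-like, neutrophil-like and plasma cell-like cells included 0, the last with 79.0 against 86.0 CPM. The larger unnamed cluster was also higher, from 47.1 to 79.5 CPM, 0.76 (0.40 to 1.12). The smaller unnamed cluster went from 674 CPM in 7 cells to 298 CPM in 35. Tcf4 was higher at D2 in GMP-like cells, at 93.4 against 38.3 CPM, in B precursor-like cells, at 423 against 220 CPM, and in cDC-like cells, at 805 against 604 CPM. The mix of clusters in the B precursor-like class also shifted. Its cluster lowest in Tcf4 went from 606 to 47 cells. Within clusters, Tcf4 went from 281 to 441, from 170 to 206 and from 655 to 818 CPM, smaller rises than that of the class. Siglech stood at 9.98 CPM in D2 CTX B precursor-like cells, and the part of free RNA in these levels was not tested.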

How the data were processed

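Bone marrow cells were profiled with 10x 3′ libraries, 3 of whole marrow and 2 of sorted monocytes. The authors deposited raw UMI counts per gene and cell. The submitters' processing notes name Cell Ranger 3.1 and Seurat 5.0, and the build was mm10. A barcode was retained if it had 200 genes or more and mitochondrial UMIs below 20%, leaving 7104 naive, 6126 D2 CTX, 8290 D7 CTX, 1891 naive sorted and 2564 CTX sorted cells with 46065849, 33940059, 67921924, 22279758 and 28622354 UMIs. The files used here hold fewer barcodes than the cell numbers given by the study for each library, most of all for the sorted ones, so shares of stray cells refer to the cells analysed here. Seurat 5.3.0 (R 4.3.3) clustered them on 2000 variable genes without the 10 members, 30 principal components and resolution 0.8. Whole marrow and sorted libraries were clustered separately, each with reciprocal PCA integration. Of 27 whole marrow clusters, 2 were left unnamed. Doublets were called with Scrublet in scanpy 1.11.5, at 0.8% per 1000 cells, and kept in the main values. UMIs were summed per class and library with Python 3.11.15, pandas 2.3.3 and scipy 1.17.1, and promoters were read from RefSeq tables. A gene entered a comparison with 50 UMIs over both libraries of a class or 200 of whole libraries, and was called at 2-fold with 1 CPM added. Calculations were tested on simulated data. The text names the 10 members, genes of fixed lists called in pDC-like cells, the 10 genes most like Siglech and kallikreins with a UMI. Irf7, Ly6c2, other genes of the stray cells and genes leading clusters were named after their values were seen. The members and lists were chosen with earlier results of these data known. The labels do not tell which cells came from which of the pooled mice. Intervals cover counting error only.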

Additional observations from a re-analysis of the deposited data

How the results depend on the processing

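No paired analysis was possible because each condition had 1 pooled library, and for the same reason no replicate could be left out. The ratio of Tcf4 in pDC-like cells at D7 changed sign, from -0.18 to 0.11 (0.02 to 0.20) without doublets. At resolution 0.4 pDC-like cells merged with the cDC-like class, so that setting gave no value. In whole libraries the log2 ratio of the 5 restricted genes at D7 (-0.91) was -0.47 without the 20 most abundant genes in the total. Scaling by the median of gene ratios gave 1.06 at D2 (1.27) and -0.25 at D7, and the sorted ratio (4.01) was 2.23 without cells carrying at least 2 restricted genes. Summed restricted CPM in D7 CTX pDC-like cells (3945) was 4406 under a stricter cell filter (500 genes or more, mitochondrial UMIs below 10%), 4122 at resolution 1.2 and 4142 without integration. Without doublets the naive, D2 CTX and D7 CTX values were 5756, 7227 and 5022. The pDC-like ratio at D7 (-0.47) was -0.35 under that filter, -0.20 without doublets, -0.32 with the median of gene ratios and -0.28 as a mean over cells, and the ratio at D2 (0.25) was 0.33 without doublets. The share of genes at least 2-fold apart was 1.9% at D7 without doublets, and 19% at D2 and 27.7% at D7 without the filter on low genes, which adds genes of few UMIs. Among alternatives chosen after seeing the data, leaving neutrophil and neutrophil precursor markers out of the total gave -0.33 at D7. Taking pDC-like and cDC-like cells together gave 0.44 at D2 and -0.55 at D7, with 1 of the 10 genes and 2.2% of all genes 2-fold apart at D7, and shares of cells of 3.1%, 4.10% and 2.74%. Over 10 alternatives in pDC-like cells, the sign changed for Pacsin1 at D2 in 2 and for Tcf4 at D7 in 1, and for no other of the 10 genes. Apart from alternatives that leave out genes or cells by construction, the cause was not tested.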
